A study of Sus scrofa with 24 samples.

Results

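Messenger RNA levels of 33 genes of cholesterol metabolism were described in porcine preadipocytes, the precursors of fat cells, as they were driven to differentiate in culture. The genes were listed by symbol, from the enzymes of synthesis through the SREBP control genes to uptake, esterification and efflux, and the rows of the deposited table with their pig Ensembl gene IDs were taken. The table held 32 of the 33 among its 25462 genes, and all 32 passed the limit on low values and so belonged to the 16135 genes tested. The ID of PMVK, a kinase of the mevalonate pathway, matched no row, and PMVK was not analysed here. Among the 32 members, 19 encode enzymes of synthesis, 4 control SREBP, 4 act in uptake and transport, 1 esterifies cholesterol, and 4 are efflux transporters or liver X receptors.

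Cells build cholesterol from acetyl-CoA through mevalonate, the isoprenoids and squalene, and then through lanosterol and a series of sterols. The transcription factor SREBP2, the product of SREBF2, switches on most of these enzymes when the membrane of the endoplasmic reticulum is poor in sterol, and it is held back there by SCAP and the INSIG proteins when sterol is plentiful. Cholesterol that is taken up leaves the lysosome through NPC2 and NPC1, surplus cholesterol is esterified by SOAT1 or exported by ABCA1 and ABCG1, and the liver X receptors (NR1H2 and NR1H3) raise the exporters in response to oxysterols. Fat cells are a large store of free cholesterol in the body, much of it at the surface of the lipid droplet.

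The cells came from Yorkshire piglets aged 6 days, and 2 depots were compared. BF cells were taken from fat under the skin of the back, and IMF cells were the intramuscular preadipocytes of digested longissimus dorsi muscle. RNA was drawn at the start of differentiation and 2, 4 and 8 days into it, with 3 libraries in each of the 8 groups, named BF-0d to BF-8d and IMF-0d to IMF-8d. All cells were primary cultures in medium with fetal bovine serum. Confluent cells received insulin, dexamethasone (a synthetic glucocorticoid) and IBMX (which blocks phosphodiesterases), then insulin without the other agents, and then growth medium, so that the day of sampling and the medium cannot be told apart. The study used 3 piglets, but neither the labels nor the methods tie a replicate number to a piglet, and the p-values therefore measure only the spread between these libraries, which may be technical. Polyadenylated RNA was sequenced, and the authors deposited FPKM, fragments scaled to transcript length and to the mapped fragments of the library. This scale allows for transcript length between genes, but it leaves differences between libraries in the makeup of their RNA.

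Values were tested as log2(FPKM + 1) with limma over all 24 libraries, and a gene was called when its Benjamini-Hochberg adjusted p over all tested genes was under 0.01 and its absolute log2 difference was at least 1. Differences below are log2 differences of FPKM + 1 with their standard error (SE), later minus earlier day or IMF minus BF, a scale that shrinks changes between low values. The words "rose" and "fell" are kept for called differences. A lower level in a culture can stem from fewer cells of a type or from less RNA per cell, which cannot be told apart in bulk samples.

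The number of reads behind each value is unknown. The FPKM of a library summed to 307967 to 385768. Replicates of BF-0d and of the IMF groups correlated across genes at 0.987 to 0.994, those of BF-2d, BF-4d and BF-8d at 0.962 to 0.991. BF-2d replicate 3 stood apart from its group, with a summed level of the 10 adipocyte markers of 23.2 FPKM against 93.4 and 88.1 FPKM. The libraries are labelled as adipocytes. LPL (lipoprotein lipase) averaged 422 FPKM in BF-8d and 120 FPKM in IMF-8d and made up most of the sum there, but it averaged 2.22 FPKM in BF-0d and 1.06 FPKM in IMF-0d, and 5 of the 10 markers, among them ADIPOQ at 0.230 FPKM or less and PLIN1 at 0.0773 FPKM or less, stayed under 1 FPKM in all 24 libraries. The sum was 9.18 to 10.9 FPKM in BF-0d, 281 to 622 FPKM in BF-8d, 2.82 to 3.68 FPKM in IMF-0d and 97.2 to 143 FPKM in IMF-8d. Stromal markers (6 genes, all above 1 FPKM in some library) summed to 8340 to 9299 FPKM in BF-0d, 3999 to 4503 in BF-8d, 9009 to 9363 in IMF-0d and 4700 to 5247 in IMF-8d. COL1A1 (a collagen chain) accounted for most of that drop, from a mean of 5753 to 845 FPKM in BF and from 6135 to 2062 FPKM in IMF cells, whereas PDGFRA (a receptor of stromal cells) went from 77.0 to 228 and from 60.1 to 226 FPKM. Of 9 macrophage and other immune markers, 6 stayed under 1 FPKM throughout, LYZ was listed at 0 in all 24 libraries, and the summed level was 3.20 to 19.0 FPKM, highest in BF-4d replicate 3. DES (desmin) made up nearly all of the myogenic sum outside BF-4d and BF-8d. That sum was 29.7 to 45.4 FPKM in IMF-0d, 3.06 to 4.60 FPKM in IMF-2d, 10.1 to 13.2 FPKM in IMF-4d, 1.27 to 2.25 FPKM in IMF-8d, 4.54 to 4.91 FPKM in BF-0d and 0.0775 to 0.133 FPKM in BF-8d, and MYOD1 and MYF5 were listed at 0 in all 24 libraries. Endothelial markers (5 of 6 in the table, 3 of them under 1 FPKM throughout) summed to 5.31 to 6.86 FPKM in BF-0d, 1.302 to 2.20 FPKM in BF-8d, 4.46 to 5.64 FPKM in IMF-0d and 3.99 to 4.89 FPKM in IMF-8d.

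**Figure D1:**
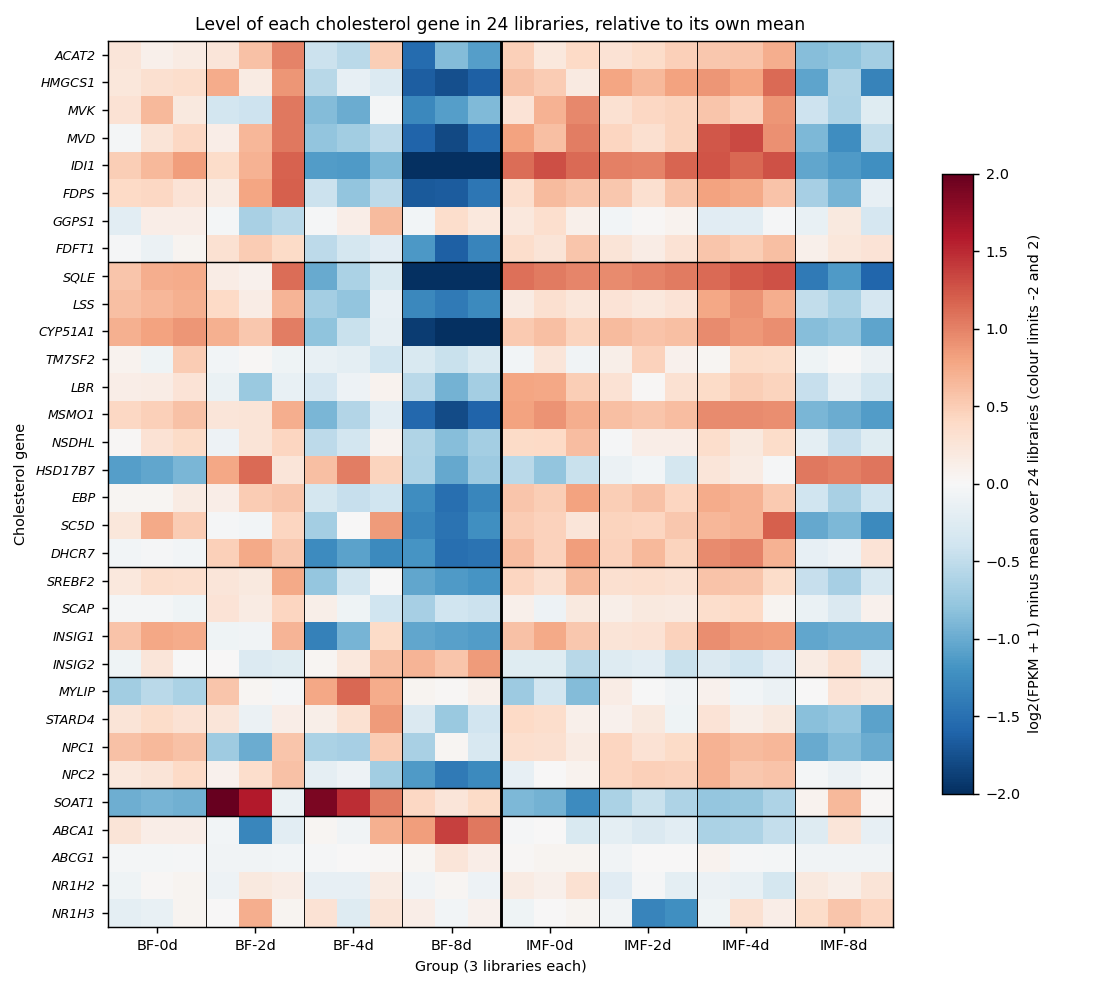
Level of each of the 32 cholesterol genes (rows, ordered by role) in the 24 libraries (columns, grouped by depot and day) as log2(FPKM + 1) minus the gene's mean over the 24 libraries, in colours limited at -2 and 2. Most synthesis genes are blue (low) in BF-8d and IMF-8d, already pale or blue in BF-4d and red (high) in IMF-4d, while HSD17B7, INSIG2, MYLIP and SOAT1 have their own patterns.

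The promoter windows of the members are shown first for genes in which the binding sequence of SREBP was found as letters. Windows ran from 250 bases before to 50 bases after the start of the RefSeq gene on the Sscrofa11.1 assembly, and 32 of the 33 listed genes had one (IDI1 had none). The core TCACNCCAC of a sterol regulatory element, searched on both strands, occurred in 3 of these 32 windows (9.38%) and in 181 of 20612 windows of all genes (0.878%). Of the 3, the windows of HMGCS1, whose product makes HMG-CoA at the head of the mevalonate pathway, and of SREBF2 itself are printed. HSD17B7 is shown beside them because its levels took another course than those of the other synthesis genes. Its window held no such core, but neither did most windows of synthesis genes, of which 2 of 19 (10.5%) held it. Capitals mark TCACNCCAC and the NF-Y box ATTGG (or its reverse CCAAT), and the matches of these motifs do not overlap in the printed windows. The windows lie at chr16:27957212-27957511 (HMGCS1), chr5:6784675-6784974 (SREBF2) and chr4:87742988-87743287 (HSD17B7), all on the minus strand, and are written 5′ to 3′ along the gene.
HMGCS1: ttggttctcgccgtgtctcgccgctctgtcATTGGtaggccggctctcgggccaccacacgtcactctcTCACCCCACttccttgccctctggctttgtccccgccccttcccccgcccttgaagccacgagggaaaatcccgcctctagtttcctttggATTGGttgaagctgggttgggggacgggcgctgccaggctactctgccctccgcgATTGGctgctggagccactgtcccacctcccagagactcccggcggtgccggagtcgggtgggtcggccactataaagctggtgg
SREBF2: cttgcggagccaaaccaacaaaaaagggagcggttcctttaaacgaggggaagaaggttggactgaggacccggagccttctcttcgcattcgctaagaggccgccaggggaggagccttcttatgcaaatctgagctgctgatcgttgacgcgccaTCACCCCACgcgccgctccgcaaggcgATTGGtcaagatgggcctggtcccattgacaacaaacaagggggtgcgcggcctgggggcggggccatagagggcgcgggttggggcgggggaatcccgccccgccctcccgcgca
HSD17B7: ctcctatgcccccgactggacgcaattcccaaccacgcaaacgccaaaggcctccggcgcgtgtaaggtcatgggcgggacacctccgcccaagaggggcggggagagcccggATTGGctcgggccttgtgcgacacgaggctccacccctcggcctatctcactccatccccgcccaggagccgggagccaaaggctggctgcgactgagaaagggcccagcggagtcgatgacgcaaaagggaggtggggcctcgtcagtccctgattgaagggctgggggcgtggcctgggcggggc

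The NF-Y box occurred in 17 of the 19 windows of synthesis genes (89.5%), PMVK included and IDI1 absent, and in 35.7% of the windows of all genes. The Sp1 box GGGCGG occurred in 17 of these 19 (89.5%) and in 48.9% of all windows. The E-box CACGTG was found in 2 of the 19 (10.5%) and in 7.65% of all windows. The DR4 repeat, the element read by liver X receptors, was found in 0 of the 32 windows and in 0.0728% of all. These are matches of letters, and binding was not measured.

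Synthesis enzymes made up the largest group. In BF cells synthesis genes fell in steps after day 2. In IMF cells 0 of the 19 were called from day 0 to 2 or from day 2 to 4, beside 0.787% and 0.0372% of all tested genes. Between day 4 and day 8, 12 of the 19 fell in IMF cells, beside 3.08% of all tested genes called lower. The 19 synthesis genes summed to 375.5 to 418 FPKM in the BF-0d libraries and to 91.6 to 103 FPKM in the BF-8d libraries, 24.9% of the starting mean. In IMF cells the sum was 463 to 464 FPKM on day 0, 445.5 to 465 FPKM on day 2, 548 to 565 FPKM on day 4 and 209.5 to 218 FPKM on day 8, which was 46.0% of the day 0 mean and 38.3% of the day 4 mean. BF-2d spread widely, with 406, 433 and 555 FPKM in replicates 1, 2 and 3, and BF-4d held 202, 231 and 279 FPKM. BF-8d had the lowest mean of the 8 groups for 17 of the 19 genes and IMF-4d the highest for 12 of the 19.

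Between BF-0d and BF-2d, 2 of the 32 members were called (both higher, HSD17B7 and SOAT1), beside 2.71% of all tested genes called higher and 3.87% called lower. From BF-2d to BF-4d 6 members fell and 0 rose, all 6 of them synthesis genes (MVD, IDI1, FDPS, SQLE, CYP51A1 and DHCR7), beside 1.34% of all tested genes called lower and 2.01% called higher. The median log2 difference over the 19 synthesis genes was -0.81, against 0.02 over all tested genes. From BF-4d to BF-8d 9 members fell and 0 rose, again all synthesis genes, beside 1.14% of all tested genes called lower and 1.78% called higher, and the median over the 19 was -0.995 against -0.05 over all. With median ratio scaling the calls of ACAT2, FDPS and MSMO1 in that interval were lost. Over the whole course from BF-0d to BF-8d 17 of the 32 members fell, 14 of them synthesis genes, and 1 rose, beside 7.39% of all tested genes called lower and 6.28% called higher. The median over the 19 synthesis genes was then -1.46, against -0.06 over all tested genes. When the model was fitted to the 6 libraries of a comparison alone, 0 of 32 members passed from BF-2d to BF-4d and 0 from BF-4d to BF-8d, whereas all 18 calls from BF-0d to BF-8d were kept. Over all 16135 tested genes that fit called 0 from BF-2d to BF-4d, 4 from BF-4d to BF-8d and 2095 from BF-0d to BF-8d. Without BF-4d replicate 3 the synthesis genes called were 9 from BF-2d to BF-4d and 6 from BF-4d to BF-8d, and without BF-2d replicate 3 they were 5 and 9. Markers also differed in mean between BF-2d and BF-4d. COL1A1 went from 2996 to 676 FPKM and DES from 1.36 to 0.0311 FPKM, but PDGFRA went from 298 to 342 FPKM. Of the adipocyte markers, LPL went from 55.5 to 222 FPKM and CEBPA from 9.37 to 4.02 FPKM. Their part in the falls was not tested.

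In IMF cells 0 of 32 members were called by limma from day 0 to day 2 (7 at an unadjusted p under 0.05), beside 0.787% of all tested genes. From IMF-2d to IMF-4d 0 of 32 were called (6 at an unadjusted p under 0.05), beside 0.0372% of all tested genes, and the median over the 19 synthesis genes was 0.24, against 0.02 over all tested genes. From IMF-4d to IMF-8d 15 of the 32 members fell and 0 rose, 12 of them synthesis genes, beside 3.08% of all tested genes called lower and 4.16% called higher. The median over the 19 was -1.28, against -0.07 over all tested genes. With median ratio scaling the calls of MVK, EBP and STARD4 in that interval were lost and HSD17B7 was called higher (1.08). DES, a muscle marker, averaged 11.7 FPKM in IMF-4d and 1.68 FPKM in IMF-8d, against 37.0 FPKM in IMF-0d. Between IMF-4d and IMF-8d the mean of COL1A1 went from 4364 to 2062 FPKM and that of PDGFRA from 144 to 226 FPKM. Of the adipocyte markers, LPL went from 5.50 to 120 FPKM and CEBPA from 5.89 to 1.76 FPKM. The part of these markers in the falls was not tested. From IMF-0d to IMF-8d 15 members fell, 12 of them synthesis genes, and 2 rose (HSD17B7 and SOAT1), beside 4.49% of all tested genes called lower and 4.56% called higher. With median ratio scaling 7 of the 19 synthesis genes were called lower there, in place of 12. Without IMF-2d replicate 1, NR1H3 was the 1 member called in each of the first 2 intervals.

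The falls from day 0 to day 8 were compared between the depots, which share no library. Of the 17 members that fell in BF cells and the 15 that fell in IMF cells, 12 were in common (70.6% of the BF genes and 80% of the IMF genes), and over all tested genes 450 were in common among 1192 and 724 (37.8% and 62.2%). The 12 were ACAT2, HMGCS1, MVK, MVD, IDI1, FDPS, SQLE, CYP51A1, MSMO1, EBP, SC5D and INSIG1. The others called in BF cells were DHCR7, FDFT1, LSS, NPC2 and SREBF2, and the others called in IMF cells were LBR, NPC1 and STARD4. With a pseudocount of 0.1 LBR and STARD4 were called lower from BF-0d to BF-8d as well (-1.21 and -1.13), and without IMF-0d replicate 2 or without IMF-8d replicate 3 SREBF2 was called lower from IMF-0d to IMF-8d (-1.01 and -1.02). With median ratio scaling the calls of ACAT2, MVK, FDPS, LBR and EBP from IMF-0d to IMF-8d were lost, and among fits that left out a library MVK was kept in 1 of 6 and NPC1 in 2 of 6. The difference between depots in the change from day 0 to day 8 was not tested. The marker sums given above also differed between day 0 and day 8 in both depots, but their members did not move together: in BF cells COL1A1 and DCN were lower on day 8 and PDGFRA, PDGFRB, COL3A1 and LUM higher in mean, and PPARG, the regulator of fat cell formation, went from 3.003 to 0.973 FPKM while LPL was higher. The endothelial marker PECAM1 averaged 4.75 FPKM in BF-0d and 1.67 FPKM in BF-8d, against 4.56 and 4.38 FPKM in IMF-0d and IMF-8d, and DES went from 4.68 to 0.0556 FPKM in BF cells. Their part in these falls was not tested.

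**Figure D2:**
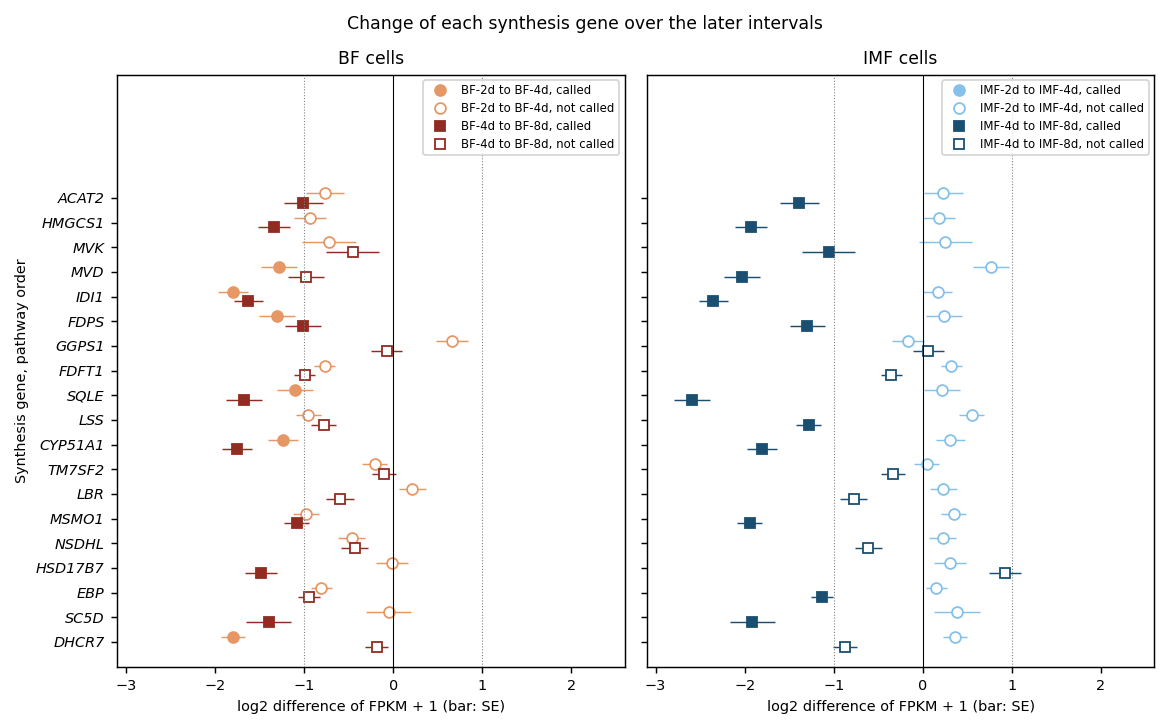
Log2 difference of FPKM + 1 for the 19 synthesis genes in pathway order, for the intervals from day 2 to 4 (circles) and day 4 to 8 (squares) in BF cells (left) and IMF cells (right), with bars of 1 SE. Filled symbols are called, dotted lines mark -1 and 1. In BF cells both intervals lie mostly left of 0, in IMF cells the interval from day 2 to 4 lies near or right of 0 and the interval from day 4 to 8 left of -1 for 12 genes.

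The mevalonate branch begins with ACAT2, the thiolase that joins acetyl-CoA units. ACAT2 stood at 34.9, 31.6 and 33.2 on day 0, 34.8, 44.4 and 59.7 on day 2, 21.6, 19.9 and 41.7 on day 4 and 9.47, 15.7 and 13.1 FPKM on day 8 in BF replicates 1 to 3 and at 41.3, 34.2 and 38.9 on day 0, 36.1, 38.2 and 41.1 on day 2, 43, 43.9 and 49.2 on day 4 and 15.8, 16.4 and 17.9 FPKM on day 8 in IMF replicates. The BF-8d libraries lay below all other BF libraries and the IMF-8d libraries below all other IMF libraries. ACAT2 fell by day 8 from day 0 in BF cells (-1.34 ± 0.22 SE, adjusted p = 3.42e-05) and from day 4 in IMF cells (-1.39 ± 0.22 SE, adjusted p = 5.56e-05). The reads of ACAT2 can overlap those of TCP1 on the other strand, and whether the counting used strand is not given in the sources used here.

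HMGCS1, the HMG-CoA synthase whose promoter window is printed above, stood at 41.6, 44.4 and 45.4 on day 0, 60.2, 39.9 and 65.99 on day 2, 23.7, 31.5 and 29.1 on day 4 and 10.6, 9.84 and 10.8 FPKM on day 8 in BF cells. In IMF cells its levels were 53.6, 50.6 and 40.5 on day 0, 62, 56.4 and 62.7 on day 2, 66.3, 61.9 and 78.8 on day 4 and 16.6, 23.04 and 13.5 FPKM on day 8. The day 8 libraries of each depot lay below all earlier libraries of that depot, and the BF-4d libraries lay below those of BF-0d and BF-2d. HMGCS1 fell from BF-4d to BF-8d (-1.34 ± 0.18 SE, adjusted p = 4.06e-05) and from IMF-4d to IMF-8d (-1.93 ± 0.18 SE, adjusted p = 1.13e-07).

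MVK, the mevalonate kinase, was a low gene of the branch, at 4.02, 5.42 and 3.70 on day 0, 2.18, 2.09 and 7.57 on day 2, 1.26, 1.07 and 3.01 on day 4 and 0.683, 0.922 and 1.24 FPKM on day 8 in BF cells. Its IMF levels stood at 3.98, 5.66 and 7.02 on day 0, 4.08, 4.47 and 4.57 on day 2, 5.06, 4.67 and 6.61 on day 4 and 2.10, 1.69 and 2.49 FPKM on day 8. BF-2d replicate 3 was the highest of the 24 libraries, far above replicates 1 and 2 of its group. MVK fell from BF-0d to BF-8d (-1.46 ± 0.30 SE, adjusted p = 0.000432), and its fall from IMF-4d to IMF-8d (-1.06 ± 0.30 SE, adjusted p = 0.00963) was kept in 0 of 6 fits that left out a library of these groups.

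MVD, the decarboxylase that yields isopentenyl diphosphate, stood at 10.9, 13.5 and 15.3 on day 0, 12.4, 18.3 and 24.4 on day 2, 6.03, 6.53 and 7.50 on day 4 and 3.002, 2.49 and 3.17 FPKM on day 8 in BF cells. Its IMF levels were 20.4, 17.5 and 23.8 on day 0, 15.5, 14.2 and 15.5 on day 2, 27.7, 29.5 and 21.98 on day 4 and 5.51, 4.15 and 7.68 FPKM on day 8. The BF-4d libraries lay below all BF-0d and BF-2d libraries, and IMF-4d replicates 1 and 2 were the highest of the 24. MVD fell from BF-2d to BF-4d (-1.29 ± 0.20 SE, adjusted p = 0.000207) and from IMF-4d to IMF-8d (-2.04 ± 0.20 SE, adjusted p = 2.79e-07).

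IDI1, the isomerase of isopentenyl diphosphate, had the largest fall of all members in BF cells. Its levels were 37.1, 41.4 and 47.6 on day 0, 34.05, 43.1 and 60.3 on day 2, 11.5, 11.4 and 13.5 on day 4 and 4.10, 2.40 and 3.40 FPKM on day 8 in BF cells and 57.7, 65.5 and 58.5 on day 0, 53.5, 53.03 and 59.8 on day 2, 63.8, 58.9 and 64.6 on day 4 and 12.2, 11.4 and 10.6 FPKM on day 8 in IMF cells. BF cells had lost most of the transcript by day 4 and kept 7.84% of the day 0 mean on day 8, while IMF libraries up to day 4 stayed between 53.03 and 65.5 FPKM. IDI1 fell from BF-2d to BF-4d (-1.80 ± 0.16 SE, adjusted p = 8.12e-07), from BF-4d to BF-8d (-1.63 ± 0.16 SE, adjusted p = 1.33e-06), over the whole BF course (-3.34 ± 0.16 SE, adjusted p = 1.04e-11) and from IMF-4d to IMF-8d (-2.35 ± 0.16 SE, adjusted p = 2e-09).

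FDPS, which makes farnesyl diphosphate, stood at 22.98, 23.2 and 21.04 on day 0, 19.5, 30.6 and 41.04 on day 2, 12.5, 9.56 and 11.7 on day 4 and 4.69, 4.78 and 5.73 FPKM on day 8 in BF cells and at 22.2, 27.3 and 25.8 on day 0, 25.6, 21.8 and 25.8 on day 2, 30.8, 29.98 and 26.1 on day 4 and 10.5, 8.63 and 15.2 FPKM on day 8 in IMF cells. The BF-4d libraries lay below those of BF-2d without overlap, and BF-2d replicate 3 was the highest of all. FDPS fell from BF-2d to BF-4d (-1.30 ± 0.20 SE, adjusted p = 0.000167) and from IMF-4d to IMF-8d (-1.30 ± 0.20 SE, adjusted p = 4.99e-05). GGPS1, which makes the geranylgeranyl diphosphate used to anchor proteins rather than to build sterols, was called in 0 of the 12 pairwise comparisons and ranged from 2.90 to 8.49 FPKM over the 24 libraries.

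FDFT1, the squalene synthase that commits farnesyl diphosphate to sterols, stood at 18.3, 16.9 and 19.3 on day 0, 23.1, 26.7 and 24.3 on day 2, 12.6, 14.2 and 15.6 on day 4 and 7.84, 5.27 and 6.83 FPKM on day 8 in BF cells and at 23.9, 22.4 and 27.6 on day 0, 22.2, 20.6 and 22.8 on day 2, 27.5, 26.5 and 28.7 on day 4 and 19.8, 21.7 and 22.5 FPKM on day 8 in IMF cells. The BF-8d libraries lay below the other 21 libraries, and the IMF-8d libraries overlapped those of IMF-0d and IMF-2d. FDFT1 fell over the BF course (-1.34 ± 0.12 SE, adjusted p = 1.87e-08), whereas from IMF-4d to IMF-8d its difference was -0.36 ± 0.12 SE, adjusted p = 0.0237 and not called. IMF cells kept 86.6% of their day 0 mean on day 8 and BF cells 36.5%.

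SQLE, the epoxidase of squalene, stood at 22.3, 25.2 and 25.4 on day 0, 16.5, 15.8 and 33.2 on day 2, 6.82, 9.13 and 11.7 on day 4 and 2.43, 2.06 and 1.93 FPKM on day 8 in BF cells and at 32.7, 31.4 and 29.9 on day 0, 29.4, 30.3 and 31.5 on day 2, 33.7, 35.8 and 37.1 on day 4 and 4.95, 6.19 and 4.23 FPKM on day 8 in IMF cells. The 9 IMF libraries of days 0 to 4 lay between 29.4 and 37.1 FPKM, and BF-2d replicate 3 again stood at about that level and above the other BF libraries. SQLE fell over the BF course (-3.01 ± 0.20 SE, adjusted p = 5.43e-10) and from IMF-4d to IMF-8d (-2.59 ± 0.20 SE, adjusted p = 1.06e-08), the largest fall of any member in that interval. Its fall from BF-2d to BF-4d (-1.10 ± 0.20 SE, adjusted p = 0.000717) was lost without BF-2d replicate 3 or without BF-4d replicate 1.

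LSS, the cyclase that forms lanosterol, stood at 29.9, 31.3 and 32.3 on day 0, 25.9, 21.6 and 31.6 on day 2, 11.6, 10.8 and 17.2 on day 4 and 7.31, 6.60 and 7.42 FPKM on day 8 in BF cells and at 21.7, 24.4 and 22.9 on day 0, 23.48, 22.6 and 23.55 on day 2, 33.7, 36.8 and 32.7 on day 4 and 13.4, 12.2 and 15.2 FPKM on day 8 in IMF cells. In BF cells the libraries of day 8 lay below those of day 4 and the libraries of day 4 below those of days 0 and 2. LSS fell over the BF course (-1.99 ± 0.14 SE, adjusted p = 1.11e-09) and from IMF-4d to IMF-8d (-1.28 ± 0.14 SE, adjusted p = 1.01e-06), while its difference from IMF-0d to IMF-8d (-0.72 ± 0.14 SE, adjusted p = 0.000427) stayed under the fold limit.

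CYP51A1, which demethylates lanosterol, was the most abundant synthesis transcript on day 0 in BF cells. It stood at 61.4, 65.3 and 69.2 on day 0, 61.3, 54.6 and 76.6 on day 2, 20.8, 26.9 and 32.7 on day 4 and 9.19, 5.14 and 7.52 FPKM on day 8 in BF cells and at 53.6, 57 and 50.6 on day 0, 58.05, 55.6 and 56.8 on day 2, 71.98, 68.7 and 71.3 on day 4 and 20.1, 21.1 and 17.4 FPKM on day 8 in IMF cells. The 3 lowest libraries were those of BF-8d, at 11.15% of the BF-0d mean, and IMF-8d held 36.4% of the IMF-0d mean. CYP51A1 fell from BF-2d to BF-4d (-1.24 ± 0.16 SE, adjusted p = 4.37e-05), from BF-4d to BF-8d (-1.75 ± 0.16 SE, adjusted p = 5e-07) and from IMF-4d to IMF-8d (-1.81 ± 0.16 SE, adjusted p = 7.98e-08).

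The reductases that act next are TM7SF2 and LBR, and LBR is also a protein of the nuclear lamina. TM7SF2 stayed at 0.148 to 1.22 FPKM and was called in 0 of the 12 pairwise comparisons, but with a pseudocount of 0.1 it was called lower from BF-0d to BF-8d (adjusted p = 0.00146) and higher in IMF-4d than in BF-4d (adjusted p = 0.00346). LBR stood at 3.92, 4.002 and 4.41 on day 0, 3.12, 1.70 and 3.08 on day 2, 2.58, 3.19 and 3.72 on day 4 and 2.11, 1.33 and 1.81 FPKM on day 8 in BF cells and at 6.80, 6.68 and 5.35 on day 0, 4.51, 3.59 and 4.58 on day 2, 4.87, 5.32 and 5.13 on day 4 and 2.27, 2.96 and 2.50 FPKM on day 8 in IMF cells. The IMF-0d libraries were the highest of the 24. LBR fell from IMF-0d to IMF-8d (-1.02 ± 0.15 SE, adjusted p = 2.9e-05), a call kept in 3 of 6 fits that left out a library and lost with median ratio scaling. With a pseudocount of 0.1 it was also called lower from BF-0d to BF-8d (-1.21).

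MSMO1, NSDHL and HSD17B7 together remove methyl groups from the sterol ring, and their transcripts did not move together. MSMO1 stood at 21.9, 22.9 and 24.8 on day 0, 19.4, 19.6 and 27.5 on day 2, 8.13, 10.5 and 13.9 on day 4 and 4.79, 3.96 and 4.70 FPKM on day 8 in BF cells and at 28.98, 30.97 and 27.4 on day 0, 25.1, 24.3 and 25.4 on day 2, 32.1, 31.99 and 31.8 on day 4 and 8.18, 7.61 and 6.93 FPKM on day 8 in IMF cells. It stepped down in BF cells from day 4 on and in IMF cells on day 8, with no overlap between day 8 and any earlier day of the same depot. MSMO1 fell over the BF course (-2.14 ± 0.14 SE, adjusted p = 5.35e-10) and from IMF-4d to IMF-8d (-1.95 ± 0.14 SE, adjusted p = 4.68e-09). NSDHL ranged from 1.06 to 4.67 FPKM and was called in 0 of the 12 pairwise comparisons, with a difference of -0.94 ± 0.15 SE, adjusted p = 3.67e-05 over the BF course that stayed under the fold limit and passed it with a pseudocount of 0.1 (-1.33).

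HSD17B7, the ketoreductase of this step, had a course of its own. Its levels were 7.04, 7.34 and 8.14 on day 0, 28.3, 36.7 and 19.3 on day 2, 25.2, 34.2 and 22.5 on day 4 and 10.2, 7.48 and 9.37 FPKM on day 8 in BF cells and 10.9, 8.99 and 11.7 on day 0, 14.8, 15.6 and 12.5 on day 2, 19.4, 18.3 and 15.96 on day 4 and 34.7, 33.7 and 35.4 FPKM on day 8 in IMF cells. In BF cells it was high on days 2 and 4 and back near the day 0 level on day 8, and in IMF cells the day 8 libraries lay above all earlier ones. HSD17B7 rose from BF-0d to BF-2d (1.73 ± 0.18 SE, adjusted p = 7.84e-07), fell from BF-4d to BF-8d (-1.49 ± 0.18 SE, adjusted p = 1.37e-05) and rose from IMF-0d to IMF-8d (1.63 ± 0.18 SE, adjusted p = 6.97e-07). On day 8 it was higher in IMF than in BF cells (1.84 ± 0.18 SE, adjusted p = 2.25e-07). The change from day 4 to day 8 differed between the depots by 2.40 ± 0.25 SE, adjusted p = 2.69e-06, the largest of the differences between depots in a change among the members.

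EBP, the sterol isomerase, stood at 26.2, 26.4 and 28.7 on day 0, 28.02, 36.8 and 38.03 on day 2, 19.7, 18.2 and 19.1 on day 4 and 10.2, 8.31 and 9.73 FPKM on day 8 in BF cells and at 38.1, 36.2 and 45.6 on day 0, 36.2, 38.9 and 34.7 on day 2, 43.4, 41.8 and 37.3 on day 4 and 19.1, 15.9 and 19.3 FPKM on day 8 in IMF cells. BF-8d was the lowest group, with no overlap with any other. EBP fell over the BF course (-1.43 ± 0.12 SE, adjusted p = 1.11e-08) and from IMF-4d to IMF-8d (-1.14 ± 0.12 SE, adjusted p = 7.03e-07), the latter no longer called with median ratio scaling.

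SC5D, the sterol desaturase, stood at 12.02, 17.8 and 14.8 on day 0, 9.92, 9.74 and 14.03 on day 2, 5.97, 10.2 and 19.2 on day 4 and 3.51, 3.01 and 3.75 FPKM on day 8 in BF cells and at 14.9, 14.3 and 12.2 on day 0, 14.2, 14.05 and 15.1 on day 2, 16.7, 16.96 and 24.7 on day 4 and 4.51, 4.96 and 3.61 FPKM on day 8 in IMF cells. BF-4d replicate 3 lay above all other BF libraries, while BF-4d replicate 1 lay below all BF-0d and BF-2d libraries. SC5D fell over the BF course (-1.83 ± 0.25 SE, adjusted p = 5.98e-06) and from IMF-4d to IMF-8d (-1.92 ± 0.25 SE, adjusted p = 9.12e-06). An antisense RNA overlaps SC5D in the RefSeq annotation.

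DHCR7, the reductase that yields cholesterol at the end of the pathway, stood at 13.4, 13.7 and 13.4 on day 0, 19.8, 24.3 and 20.7 on day 2, 5.22, 6.07 and 5.17 on day 4 and 5.57, 4.24 and 4.35 FPKM on day 8 in BF cells and at 21.98, 19.6 and 25.7 on day 0, 19.5, 22.3 and 19.3 on day 2, 27.7, 28.5 and 23.2 on day 4 and 12.4, 12.8 and 16.9 FPKM on day 8 in IMF cells. In BF cells the day 4 libraries lay far below those of day 2 and overlapped those of day 8. DHCR7 fell from BF-2d to BF-4d (-1.80 ± 0.13 SE, adjusted p = 1.01e-07), and its difference from BF-4d to BF-8d was -0.19 ± 0.13 SE, adjusted p = 0.357. From IMF-4d to IMF-8d the difference was -0.87 ± 0.13 SE, adjusted p = 3.88e-05, under the fold limit, and IMF-8d kept 62.7% of the IMF-0d mean.

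**Figure D3:**
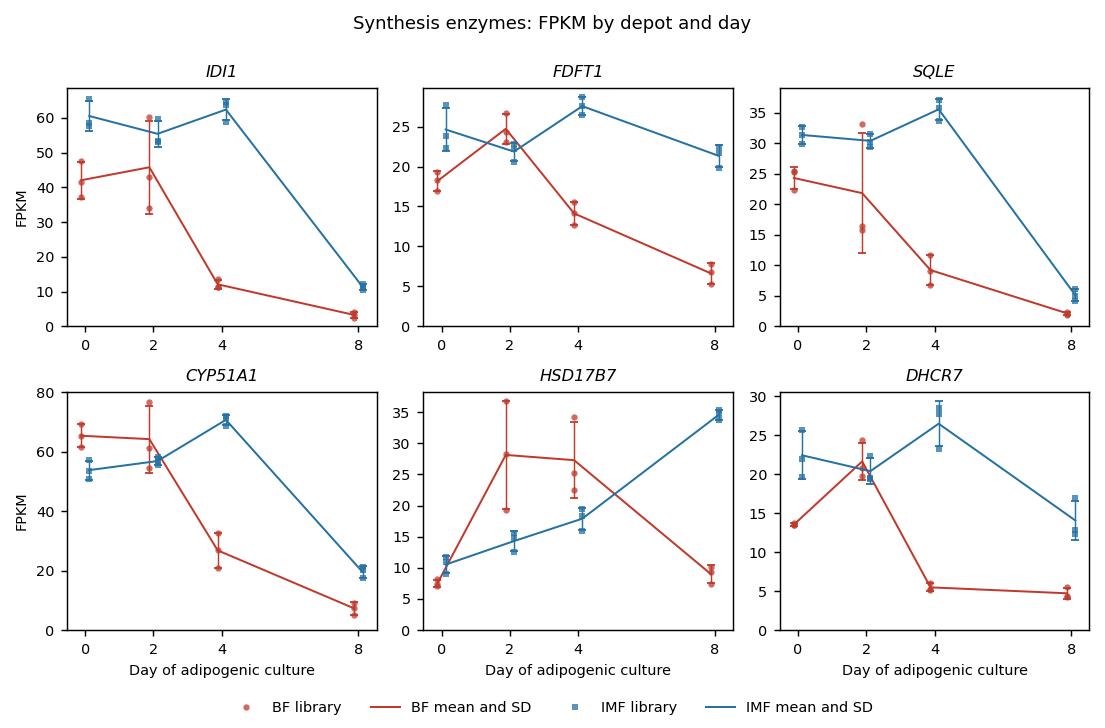
FPKM of 6 synthesis enzymes by day of culture (x axis) in BF cells (red circles) and IMF cells (blue squares). Points are libraries, lines join group means and bars are SD (n = 3). IDI1, SQLE and CYP51A1 fall in BF cells from day 2 on and in IMF cells after day 4, FDFT1 and DHCR7 keep 86.6% and 62.7% of the day 0 mean in IMF-8d, and HSD17B7 is highest in IMF-8d.

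Comparing the depots day by day asked where the subcutaneous and the intramuscular cells differed. On day 0, 0 of 32 members were called by limma (11 at an unadjusted p under 0.05), beside 2.58% of all tested genes. On day 2, 2 members were lower in IMF than in BF cells, SOAT1 and NR1H3, beside 2.02% of all tested genes called lower and 2.71% called higher, and 0 of the 19 synthesis genes were called. The day 2 count was 4 without BF-2d replicate 3, 0 without BF-2d replicate 2, and 1 without IMF-2d replicate 2 or without IMF-2d replicate 3, and both calls were lost in the fit on only the groups compared.

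On day 4, 12 members were higher in IMF than in BF cells and 1, SOAT1, was lower, beside 6.6% of all tested genes called higher and 4.72% called lower. Of the 12, 11 were synthesis genes (HMGCS1, MVK, MVD, IDI1, FDPS, SQLE, LSS, CYP51A1, MSMO1, EBP and DHCR7) and the other was INSIG1. The differences were largest for IDI1 (2.28 ± 0.16 SE, adjusted p = 2.14e-09) and DHCR7 (2.08 ± 0.13 SE, adjusted p = 5.48e-10), and the median over the 19 synthesis genes was 1.27, against 0.07 over all tested genes. The call of MVK was kept in 3 of 6 fits that left out a library, those of MVK and INSIG1 were lost in the fit on only the groups compared, and that of EBP was lost with median ratio scaling. Adipocyte marker sums on that day were 182 to 318 FPKM in BF cells and 11.4 to 14.3 FPKM in IMF cells, and stromal marker sums were 2912 to 4381 and 8533 to 8707 FPKM. Single markers did not all follow the sums: COL1A1 averaged 676 FPKM in BF-4d and 4364 FPKM in IMF-4d, PDGFRA 342 and 144 FPKM, PDGFRB 199 and 98.1 FPKM, and the adipocyte marker CEBPA 4.02 and 5.89 FPKM. Myogenic sums were 0.0571 to 0.0994 FPKM in BF-4d and 10.1 to 13.2 FPKM in IMF-4d, and endothelial sums 1.21 to 2.02 and 3.61 to 3.79 FPKM. Their part in the difference was not tested.

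On day 8, 7 members were higher in IMF than in BF cells and 1, ABCA1, was lower, beside 4.31% of all tested genes called higher and 2.65% called lower. The 7 were the synthesis genes IDI1, FDPS, FDFT1, CYP51A1, HSD17B7 and DHCR7 and the lysosomal protein NPC2. The call of FDPS was kept in 3 of 6 fits that left out a library and lost with median ratio scaling. FDFT1 differed by 1.56 ± 0.12 SE, adjusted p = 6.48e-09 and IDI1 by 1.55 ± 0.16 SE, adjusted p = 5.98e-07. Another 6 synthesis genes had an adjusted p under 0.01 and a difference under the fold limit, and the median over the 19 was 0.77, against 0.04 over all tested genes.

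Whether the depots differed in the change over an interval was tested as an interaction. From day 0 to day 2 the change differed for 1 of the 32 members, HSD17B7 (-1.32 ± 0.25 SE, adjusted p = 0.00271), beside 1.21% of all tested genes with a lower change in IMF cells. That call was lost without IMF-0d replicate 3, without IMF-2d replicate 3 and when only the compared groups were fitted. Calls of NPC1 (1.555) and SOAT1 (-2.39) were added without BF-2d replicate 3, and of NR1H3 (-1.625) without IMF-2d replicate 1. From day 2 to day 4 the change differed for 10, all synthesis genes and all with the higher value in IMF cells, beside 1.76% of all tested genes with a higher change in IMF cells. The largest were DHCR7 (2.16 ± 0.19 SE, adjusted p = 3.86e-06), MVD (2.05 ± 0.29 SE, adjusted p = 0.000304) and IDI1 (1.97 ± 0.23 SE, adjusted p = 5.36e-05), and the median over the 19 was 1.09, against -0.0025 over all tested genes. The calls of HMGCS1 and SQLE were kept in 2 and 3 of 12 fits that left out a library, and the other 8 in all 12. In a fit on only the groups compared 4 of the 10 were kept (MVD, IDI1, FDFT1 and DHCR7). That fit called 33 of all 16135 tested genes in this contrast, against 493 with all 24 libraries. From day 4 to day 8 the change differed for 3 members (HSD17B7, SOAT1 and MYLIP), all with the higher change in IMF cells, beside 3.81% of all tested genes. The members called numbered 6 without BF-4d replicate 3 or without BF-2d replicate 3, and the added calls had the lower change in IMF cells. They were INSIG1 (-1.94), MSMO1 (-1.04) and NPC1 (-1.96) without BF-4d replicate 3. Without BF-2d replicate 3 they were INSIG1 (-1.43), MVD (-1.05) and NPC1 (-1.58). The count was 1 without BF-4d replicate 2, BF-8d replicate 2, IMF-4d replicate 3 or IMF-8d replicate 2.

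Of the SREBP control genes, SREBF2 fell over the BF course, INSIG1 fell from day 0 to day 8 in both depots, and SCAP and INSIG2 were not called. Neither SREBF2 nor INSIG1 was called from BF-2d to BF-4d or from BF-4d to BF-8d. SREBF2, whose product drives the synthesis genes and whose promoter window is printed above, stood at 36.5, 40.2 and 39.9 on day 0, 37.3, 35.8 and 53.8 on day 2, 17.9, 23.9 and 31.2 on day 4 and 14.7, 13.8 and 13.3 FPKM on day 8 in BF cells and at 42.4, 39.1 and 48.8 on day 0, 39.3, 39.5 and 38.7 on day 2, 47.03, 46.4 and 40.7 on day 4 and 22.4, 19.3 and 24.8 FPKM on day 8 in IMF cells. The BF-8d libraries were the lowest of the 24, and the IMF-8d libraries lay below all earlier IMF libraries. SREBF2 fell over the BF course (-1.42 ± 0.16 SE, adjusted p = 5.52e-07), and its difference from IMF-4d to IMF-8d (-0.98 ± 0.16 SE, adjusted p = 0.000104) was just under the fold limit and passed it with a pseudocount of 0.1 (-1.01).

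SCAP, the escort that carries SREBP to the Golgi, stood at 14.7, 14.7 and 14.2 on day 0, 18.7, 17.2 and 20.8 on day 2, 16.5, 14.2 and 11.3 on day 4 and 9.20, 11.3 and 11.04 FPKM on day 8 in BF cells and at 16.3, 14.02 and 17.6 on day 0, 16.6, 17.5 and 17.3 on day 2, 19.7, 20.2 and 15.8 on day 4 and 13.7, 12.3 and 16.2 FPKM on day 8 in IMF cells. Its groups lay close together, and SCAP was called in 0 of the 12 pairwise comparisons, with -0.44 ± 0.13 SE, adjusted p = 0.0101 over the BF course.

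INSIG1, which retains SCAP in the endoplasmic reticulum and is itself a target of SREBP, stood at 10.3, 12.1 and 11.7 on day 0, 6.17, 6.23 and 11.2 on day 2, 1.995, 3.003 and 8.87 on day 4 and 2.72, 2.58 and 2.52 FPKM on day 8 in BF cells and at 10.4, 11.9 and 10.05 on day 0, 8.14, 8.32 and 9.48 on day 2, 13.5, 12.7 and 12.6 on day 4 and 2.72, 2.84 and 2.82 FPKM on day 8 in IMF cells. BF-4d replicate 3 lay well above replicates 1 and 2, and the day 8 libraries of both depots lay between 2.52 and 2.84 FPKM. INSIG1 fell over the BF course (-1.78 ± 0.27 SE, adjusted p = 1.92e-05) and from IMF-4d to IMF-8d (-1.88 ± 0.27 SE, adjusted p = 2.51e-05), and on day 4 it was higher in IMF than in BF cells (1.51 ± 0.27 SE, adjusted p = 0.000161), a call lost in the fit on only the groups compared. Its fall from BF-2d to BF-4d was called without BF-4d replicate 3 alone (-1.31), and with all libraries it was -0.80 ± 0.27 SE, adjusted p = 0.0366 and not called.

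INSIG2, the second retention protein, which is not driven by SREBP in most cells, stood at 4.43, 5.79 and 4.69 on day 0, 4.76, 3.75 and 3.84 on day 2, 4.92, 5.64 and 7.72 on day 4 and 8.19, 7.47 and 9.31 FPKM on day 8 in BF cells and at 3.84, 3.87 and 2.90 on day 0, 3.81, 3.96 and 3.20 on day 2, 3.72, 3.35 and 3.93 on day 4 and 5.42, 6.18 and 4.06 FPKM on day 8 in IMF cells. The BF-8d libraries held the highest levels but for BF-4d replicate 3, which lay between them. INSIG2 differed by 0.65 ± 0.15 SE, adjusted p = 0.00159 over the BF course, under the fold limit, and was called in 0 of the 12 pairwise comparisons. The ratio of INSIG1 to INSIG2 in FPKM was 2.08 to 2.50 in BF-0d and 2.70 to 3.47 in IMF-0d, and it was 0.270 to 0.346 in BF-8d and 0.459 to 0.695 in IMF-8d, so that INSIG2 was the more abundant of the pair on day 8 in both depots.

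**Figure D4:**
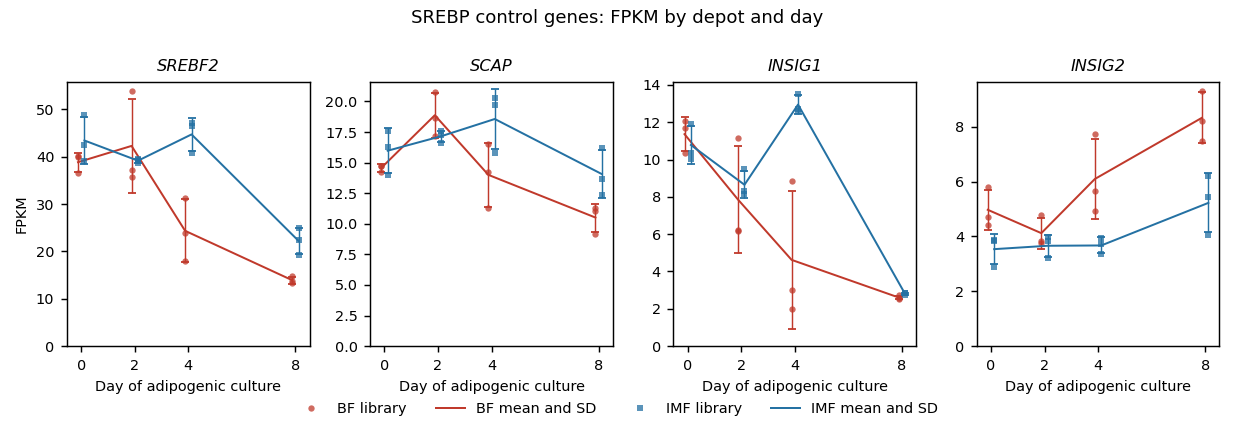
FPKM of SREBF2, SCAP, INSIG1 and INSIG2 by day of culture in BF cells (red circles) and IMF cells (blue squares), with points for libraries, lines through group means and bars of SD (n = 3). INSIG1 stands at 2.52 to 2.84 FPKM in the day 8 libraries of both depots, and INSIG2 is highest in BF-8d.

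Among the genes of uptake and transport, MYLIP marks lipoprotein receptors for degradation and is a target of liver X receptors. It was called in 0 of the 12 pairwise comparisons and ranged from 4.05 to 19.3 FPKM, with the 3 highest values in BF-4d (14.7, 19.3 and 14.3 FPKM). Its difference on day 4 was -0.91 ± 0.15 SE, adjusted p = 6.21e-05, under the fold limit but past it with median ratio scaling (-1.07), and the depots differed in its change from day 4 to day 8 (1.01 ± 0.21 SE, adjusted p = 0.00217), a call kept in 7 of 12 fits that left out a library.

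STARD4, a soluble carrier of sterol between membranes, stood at 2.88, 3.18 and 2.95 on day 0, 2.80, 1.97 and 2.52 on day 2, 2.52, 3.0 and 4.81 on day 4 and 1.63, 0.937 and 1.47 FPKM on day 8 in BF cells and at 3.26, 3.11 and 2.46 on day 0, 2.44, 2.70 and 2.03 on day 2, 2.89, 2.49 and 2.71 on day 4 and 0.815, 0.895 and 0.537 FPKM on day 8 in IMF cells. The IMF-8d libraries were the lowest of the 24. STARD4 fell from IMF-4d to IMF-8d (-1.08 ± 0.16 SE, adjusted p = 3.03e-05), lost without IMF-8d replicate 3, and from IMF-0d to IMF-8d (-1.17 ± 0.16 SE, adjusted p = 8.69e-06). In BF cells it was called lower with a pseudocount of 0.1 from BF-0d to BF-8d (-1.13) and from BF-4d to BF-8d (-1.27), and over the latter interval also without BF-4d replicate 1 (-1.05). An antisense RNA overlaps it in the RefSeq annotation.

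NPC1, the membrane protein that exports cholesterol from the lysosome, stood at 17.7, 18.7 and 17.9 on day 0, 6.69, 5.27 and 17.4 on day 2, 7.04, 6.88 and 16.9 on day 4 and 7.03, 11.8 and 9.06 FPKM on day 8 in BF cells and at 14.8, 14.7 and 13.04 on day 0, 15.9, 14.3 and 15.4 on day 2, 19.2, 18.5 and 18.8 on day 4 and 5.23, 5.90 and 5.29 FPKM on day 8 in IMF cells. BF-2d replicate 3 and BF-4d replicate 3 lay near the BF-0d libraries, while the other libraries of those groups lay at 5.27 to 7.04 FPKM. NPC1 fell from IMF-4d to IMF-8d (-1.62 ± 0.30 SE, adjusted p = 0.000322) and was called in 0 of the 4 comparisons of days in BF cells. Without BF-2d replicate 3 it was called lower from BF-0d to BF-2d (-1.46). Its reads can overlap those of C6H18orf8 on the other strand.

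NPC2, the soluble lysosomal protein that hands cholesterol to NPC1, was the most abundant member. It stood at 127, 132 and 145 on day 0, 116, 139.8 and 166 on day 2, 96.3, 102 and 67.6 on day 4 and 49.8, 40.7 and 44.97 FPKM on day 8 in BF cells and at 98.3, 111 and 115 on day 0, 148, 153 and 151 on day 2, 179, 159.7 and 163 on day 4 and 107, 101 and 107 FPKM on day 8 in IMF cells. BF-8d was the lowest group without overlap, and IMF-8d stood within the range of IMF-0d. NPC2 fell over the BF course (-1.56 ± 0.14 SE, adjusted p = 2.48e-08), and on day 8 it was higher in IMF than in BF cells (1.20 ± 0.14 SE, adjusted p = 2.18e-06). Its difference from IMF-0d to IMF-8d was -0.04 ± 0.14 SE, adjusted p = 0.855.

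SOAT1, the enzyme that esterifies cholesterol for storage, was higher on day 8 than on day 0 in both depots, and in BF cells it was highest on days 2 and 4. It stood at 4.20, 4.33 and 4.24 on day 0, 46.4, 29.6 and 8.29 on day 2, 36.6, 27.3 and 19.7 on day 4 and 12.6, 10.99 and 12.3 FPKM on day 8 in BF cells and at 4.47, 4.28 and 3.27 on day 0, 5.57, 6.45 and 5.61 on day 2, 4.95, 5.05 and 5.61 on day 4 and 9.74, 14.9 and 9.32 FPKM on day 8 in IMF cells. All BF libraries after day 0 lay above the BF-0d libraries, the IMF-8d libraries lay above all earlier IMF libraries, and BF-2d replicate 3 held much less than replicates 1 and 2. SOAT1 rose from BF-0d to BF-2d (2.18 ± 0.36 SE, adjusted p = 0.000116), a call lost in the fit on only the groups compared. On day 2 it was lower in IMF than in BF cells (-1.79 ± 0.36 SE, adjusted p = 0.00119), a call lost without BF-2d replicate 2, and on day 4 likewise lower (-2.18 ± 0.36 SE, adjusted p = 5.99e-05). On day 8 the depots overlapped in range, with a difference of -0.10 ± 0.36 SE, adjusted p = 0.864. The rises from day 0 to day 8 (1.299 ± 0.36 SE, adjusted p = 0.00494 in BF cells and 1.28 ± 0.36 SE, adjusted p = 0.0077 in IMF cells) were each kept in 0 of 6 fits that left out a library of the groups compared.

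Of the exporters, ABCA1, which loads cholesterol onto lipid-poor apolipoproteins, stood at 15.3, 14.03 and 14.05 on day 0, 12.2, 4.53 and 10.9 on day 2, 13.1, 11.98 and 21.4 on day 4 and 23.4, 34.3 and 27.5 FPKM on day 8 in BF cells and at 12.5, 12.8 and 10.05 on day 0, 10.99, 10.2 and 10.9 on day 2, 7.82, 7.91 and 8.85 on day 4 and 10.4, 15.2 and 11.2 FPKM on day 8 in IMF cells. The BF-8d libraries were the highest of the 24. On day 8 ABCA1 was lower in IMF than in BF cells (-1.15 ± 0.25 SE, adjusted p = 0.00112), and its difference over the BF course was 0.91 ± 0.25 SE, adjusted p = 0.00432, under the fold limit but past it with median ratio scaling (1.11). ABCG1, which exports cholesterol to high-density lipoprotein, reached at most 0.244 FPKM and was listed at 0 in 6 libraries, 3 of them those of IMF-8d, and it was called in 0 of the 12 pairwise comparisons. With a pseudocount of 0.1 it was called lower in IMF-8d than in BF-8d (adjusted p = 0.000544).

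The liver X receptors had few called differences. NR1H2 stood at 32.3, 34.9 and 35.7 on day 0, 31.8, 39.2 and 38.01 on day 2, 30.3, 30.5 and 38.6 on day 4 and 32.7, 35.1 and 31.8 FPKM on day 8 in BF cells and at 38.5, 36.7 and 42.4 on day 0, 29.3, 33.7 and 29.8 on day 2, 31.5, 30.8 and 26.7 on day 4 and 39.5, 37.3 and 41.3 FPKM on day 8 in IMF cells. Its values stayed within 26.7 and 42.4 FPKM, and it was called in 0 of the 12 pairwise comparisons. NR1H3 stood at 17.8, 18.7 and 21.6 on day 0, 20.7, 34.8 and 21.4 on day 2, 25.4, 17.1 and 24.9 on day 4 and 22.8, 19.9 and 22.03 FPKM on day 8 in BF cells and at 19.4, 20.8 and 21.6 on day 0, 19.6, 7.68 and 8.22 on day 2, 19.4, 25.9 and 22.8 on day 4 and 26.9, 30.9 and 28.1 FPKM on day 8 in IMF cells. IMF-2d replicates 2 and 3 were the lowest of the 24 libraries, and replicate 1 stood at the level of the other groups. NR1H3 was lower in IMF than in BF cells on day 2 (-1.13 ± 0.24 SE, adjusted p = 0.00221), a call lost without BF-2d replicate 2, IMF-2d replicate 2 or IMF-2d replicate 3, and without IMF-2d replicate 1 it was also called lower from IMF-0d to IMF-2d (-1.27) and higher from IMF-2d to IMF-4d (1.40). NR1H3 overlaps ACP2 and MADD in the RefSeq annotation, so that reads may be shared.

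**Figure D5:**
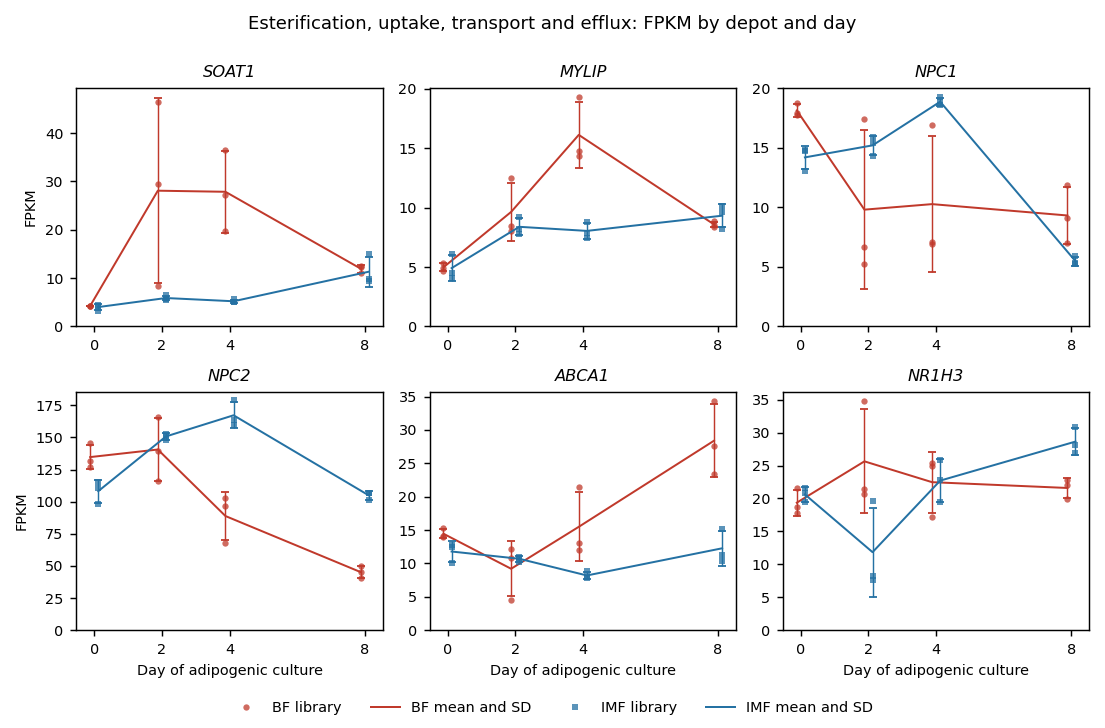
FPKM of SOAT1, MYLIP, NPC1, NPC2, ABCA1 and NR1H3 by day of culture in BF cells (red circles) and IMF cells (blue squares), with points for libraries, lines through group means and bars of SD (n = 3). SOAT1 peaks in BF cells on days 2 and 4 with a wide spread on day 2, NPC2 is lowest in BF-8d, and ABCA1 is highest in BF-8d.

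Other genes of the pathway were counted from a fixed list of 63, of which 55 were in the table and 51 were tested. From BF-0d to BF-8d 8 of the 51 fell and 0 rose, with a median of -0.33, beside 7.39% of all tested genes called lower and 6.28% called higher. From IMF-4d to IMF-8d 5 fell and 4 rose, with a median of -0.13, beside 3.08% and 4.16% of all tested genes. On day 4, 8 of the 51 were higher and 2 lower in IMF than in BF cells, beside 6.6% and 4.72% of all tested genes. NCEH1, which hydrolyses cholesterol esters, stood at 35.2, 36.8 and 33.1 on day 0, 2.70, 3.37 and 31.9 on day 2, 2.54, 2.35 and 2.63 on day 4 and 2.22, 3.68 and 3.24 FPKM on day 8 in BF cells and at 24.4, 24.5 and 19.2 on day 0, 27.1, 33.7 and 33.2 on day 2, 27.4, 26.1 and 36.8 on day 4 and 4.23, 4.34 and 4.73 FPKM on day 8 in IMF cells. Its BF libraries after day 0 lay under 4 FPKM but for BF-2d replicate 3, and the IMF-8d libraries lay at 4.23 to 4.73 FPKM. NCEH1 fell over the BF course (-3.17 ± 0.48 SE, adjusted p = 1.77e-05) and from IMF-4d to IMF-8d (-2.50 ± 0.48 SE, adjusted p = 0.00046), and on day 4 it was higher in IMF than in BF cells (3.13 ± 0.48 SE, adjusted p = 2.98e-05). SOAT1 and NCEH1, which act in opposite directions on the ester store, had opposite differences from day 0 to day 8 in both depots. The SOAT1 calls were kept in 0 of 6 fits that left out a library in either depot. A link between these genes was not tested.

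HSD3B7, an enzyme that turns oxysterols towards bile acids, stood at 24.98, 28.03 and 29.5 on day 0, 13.1, 13.7 and 21.9 on day 2, 7.43, 9.67 and 8.48 on day 4 and 16.6, 10.5 and 16.1 FPKM on day 8 in BF cells and at 31.5, 32.1 and 37.7 on day 0, 19.8, 21.3 and 21.9 on day 2, 23.55, 24.01 and 19.3 on day 4 and 63.3, 51.1 and 75.9 FPKM on day 8 in IMF cells. The IMF-8d libraries were the highest of the 24. HSD3B7 rose from IMF-4d to IMF-8d (1.46 ± 0.18 SE, adjusted p = 5.49e-06) and on day 8 was higher in IMF than in BF cells (2.07 ± 0.18 SE, adjusted p = 6.25e-08). ACAT1, the mitochondrial thiolase of ketone metabolism, stood at 124, 124 and 139.5 on day 0, 48.9, 52.9 and 86.9 on day 2, 41.8, 38.3 and 45.5 on day 4 and 36.3, 30.1 and 36.5 FPKM on day 8 in BF cells and at 105, 118 and 108 on day 0, 98.3, 96.8 and 102 on day 2, 92.02, 84.03 and 93.5 on day 4 and 46, 49.7 and 45.6 FPKM on day 8 in IMF cells. It was lower on day 8 than on day 0 in both depots, without overlap. ACAT1 fell over the BF course (-1.88 ± 0.15 SE, adjusted p = 4.93e-09) and from IMF-0d to IMF-8d (-1.21 ± 0.15 SE, adjusted p = 2.79e-06).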

How the data were processed

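Gene expression was measured in 24 libraries of polyadenylated RNA, 3 in each of the 8 groups of depot and day, and samples were grouped by the labels. The authors aligned reads with HISAT2 to Sscrofa11.1, assembled transcripts and computed FPKM with StringTie 1.3.4d, and deposited 1 FPKM value per gene and library. Read counts cannot be had from FPKM, so sequencing depth is unknown here and intervals for counting error are left out. The authors called genes with DESeq2 1.6.3 on counts, and the same thresholds were applied here with limma.

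Genes with FPKM summing to more than 1 over the 24 libraries were tested as log2(FPKM + 1), with a pseudocount of 1, by limma 3.58.1 in R 4.3.3 (1 mean per group, eBayes with trend and robust, Benjamini-Hochberg adjustment over 16135 genes). The 12 pairwise comparisons were successive days and day 0 to day 8 in each depot and the depots on each day, and 3 interaction contrasts compared the change over an interval between depots. The fit was tested on simulated data. These gave each gene the same spread in every group, so they cannot show how unequal spreads between groups act on the calls. Alternatives were a pseudocount of 0.1, no filter, a filter at a mean of 1 FPKM, the replicate number as a block, median ratio scaling, only the groups compared, and each library left out in turn. Promoter windows were read from RefSeq on Sscrofa11.1 and not tested.

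Members and lists were chosen with earlier results of these data known. Library values are printed for members called in a pairwise comparison, the SREBP control genes and the liver X receptors. Of other pathway genes, at most the 8 with the largest called difference were to be named, of which 3 are given; the other 5, and 1 promoter window, are not reported here. Of 36 pairs of libraries with the same replicate number, 7 deviated together with a correlation over 0.1, and in 0 of 12 comparisons did every pair, so the numbers were not taken to pair the samples.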

Additional observations from a re-analysis of the deposited data

Results flagged for a closer look

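The changes listed here differed between the depots, by the interaction contrast of limma at an adjusted p under 0.01 and an absolute log2 value of at least 1. Each value is the log2 change of FPKM + 1 in IMF cells minus that in BF cells over the same interval.

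From day 2 to day 4 the contrast picked out 10 synthesis genes, all with the higher value in IMF cells. It was 1.11 for HMGCS1, 2.05 for MVD, 1.97 for IDI1, 1.54 for FDPS and 1.09 for FDFT1 in the branch up to squalene. Past squalene it was 1.32 for SQLE, 1.504 for LSS, 1.55 for CYP51A1, 1.32 for MSMO1 and 2.16 for DHCR7. HMGCS1 was kept in 2 of 12 fits that left out a library and SQLE in 3 of 12. In a fit on only the groups compared MVD, IDI1, FDFT1 and DHCR7 were kept and the other 6 were not. That fit called 33 of all 16135 tested genes in this contrast, against 493 with all 24 libraries.

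HSD17B7 differed from day 0 to day 2 (-1.32), when it rose in BF cells and was not called in IMF cells, a difference lost without IMF-0d replicate 3, without IMF-2d replicate 3 and when only the compared groups were fitted, and from day 4 to day 8 (2.40), when it fell in BF cells. From day 4 to day 8 MYLIP differed by 1.01, kept in 7 of 12 fits that left out a library. SOAT1 differed over the same interval by 2.08, kept in 1 of 12.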

How the results depend on the processing

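Of the 104 calls of members over the 15 comparisons, 0 changed direction under any alternative, and 83 were kept in every fit that left out a library of the groups compared. A pseudocount of 0.1 lost 2 calls, no filter 6, the stricter filter 0, and median ratio scaling 13, which moved the median of all genes by less than 0.1 in every comparison. The pseudocount of 0.1 also added 15 calls: synthesis genes called lower went from 14 to 17 from BF-0d to BF-8d, from 9 to 12 from BF-4d to BF-8d and from 6 to 8 from BF-2d to BF-4d, and NSDHL, TM7SF2 and ABCG1 passed in at least 1 comparison. Median ratio scaling took the synthesis genes called lower from IMF-0d to IMF-8d from 12 to 7 and added 5 calls, of ABCA1 from BF-0d to BF-8d, MSMO1 from BF-2d to BF-4d, MYLIP between depots on day 4, and HSD17B7 from IMF-4d to IMF-8d and between depots on day 2. Over all tested genes it took the share of calls that were higher from 46.0% to 58.7% from BF-0d to BF-8d, from 61.0% to 75.1% from BF-4d to BF-8d and from 57.5% to 69.7% from IMF-4d to IMF-8d. Between depots that share went from 57.3% to 43.3% on day 2, from 58.3% to 48.2% on day 4 and from 62.0% to 48.5% on day 8. A fit on only the groups compared lost 27, and its counts of members called in BF cells were 1 for days 0 to 2, 0 for days 2 to 4 and 0 for days 4 to 8, with 0 between depots on day 2, and 0 and 4 for the interactions from day 0 to 2 and day 2 to 4. Calls from BF-0d to BF-8d (18 of 18), from IMF-4d to IMF-8d (15 of 15) and from IMF-0d to IMF-8d (17 of 17) were all kept there. Over all 16135 tested genes the same fit called 237, 0 and 4 in the successive BF intervals. It called 107 between depots on day 2, and 132 and 33 for the interactions from day 0 to 2 and day 2 to 4. Leaving out 1 library gave, in BF cells, 2 to 3 members for days 0 to 2, 5 to 10 for days 2 to 4 (10 without BF-4d replicate 3), 8 to 11 for days 4 to 8 and 17 to 18 for days 0 to 8. In IMF cells it gave 0 to 1 for days 0 to 2 and for days 2 to 4, 14 to 15 for days 4 to 8 and 13 to 17 for days 0 to 8. Between depots it gave 0 on day 0, 0 to 4 on day 2, 12 to 17 on day 4 and 7 to 8 on day 8. For the interactions it gave 0 to 3 from day 0 to 2 (0 without IMF-0d replicate 3 or IMF-2d replicate 3), 8 to 12 from day 2 to 4, and 1 to 6 from day 4 to 8. The cause of these shifts was not tested.

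The replicate number as a block lost 1 call (HMGCS1 in the interaction from day 2 to 4, adjusted p = 0.0121) and gave 5 members in the interaction from day 4 to 8 in place of 3. The 2 added there, INSIG1 (-1.43) and MVD (-1.05), had the lower change in IMF cells. Same-numbered libraries correlated in their deviations at -0.25 to 0.46. Calls of low genes such as TM7SF2 and ABCG1 depended on the pseudocount, and the reads behind their values are unknown.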
